A study of Oryza sativa with 6 samples.

Results

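The class I cytosolic small heat shock protein loci of rice studied here are 7 loci, 4 on chromosome 3 (Os03g0266300, Os03g0266900, Os03g0267000 and Os03g0267200) and 3 on chromosome 1 (Os01g0136000, Os01g0136100 and Os01g0136200). They were chosen by their locus numbers, with ratios of metal-treated to control roots already known for some of them, and every probe whose name starts with one of those numbers was taken. They are 7 of the 29858 loci and microRNA precursors on the array, and all 7 passed the filter on dim probes, as did 23414 of the whole set. The array files give locus numbers and the name of a cloned cDNA for each probe but no gene description, so the family name rests on the list of loci and the individual proteins are not named. The reference table of assembly ASM3414082v1 lists 4 small heat shock protein genes clustered on chromosome 3 and 5 on chromosome 1, and 0 of the array's locus numbers match it.

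Small heat shock proteins are chaperones that bind proteins as they lose their fold and keep them from clumping, without using ATP. They share the alpha-crystallin domain and assemble into large oligomers, and class I is the main cytosolic and nuclear class of plants. In vegetative tissue their transcripts are known to be scarce until heat or another stress that damages proteins, toxic metals among them, switches them on through heat shock factors.

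Rice seedlings of cultivar TN-67 were 6 days old when their roots were exposed to 25 µM cadmium or 5 µM copper, with water as the control, and 3 arrays were run for each metal. Every one of the 6 Agilent arrays set Cy5-labelled cRNA of metal-treated roots against Cy3-labelled cRNA of water-control roots, with no dye swap, so a dye effect on a probe cannot be told apart from a metal effect against the control. By the labels the 3 replicates of a metal are biological, the length of the exposure is not stated, and the series lists 3 control replicates for the 6 arrays, so the cadmium and copper ratios may share control RNA. The root label was not checked against tissue markers, because the array's loci carry no gene names, and in whole roots more RNA per cell and more cells of a type cannot be told apart.

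The share of probes well above background ranged over the arrays between 77.0% and 82.3% for treated roots and between 75.6% and 81.2% for control roots, and no spot was saturated. The arrays lay on 3 slides: copper replicate 1 and cadmium replicate 1 each on a slide of its own, and replicates 2 and 3 of both metals together on the third. Each difference between the metals is therefore also given from the 4 arrays of the shared slide. That fit has 2 arrays per metal, taken from the same data. At an adjusted p under 0.05 (limma) it put 2660 of 24272 genes higher and 3427 lower with cadmium. With all arrays, 954 of 23414 were higher and 1538 lower, so a smaller p on the shared slide is no stronger evidence. The median standard error over all genes was 0.094 for a log2 ratio and 0.133 for a difference between the metals, and the number of arrays limits the precision.

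With both metals 2 chromosome 3 loci stood far above the control, Os03g0267000 and Os03g0266900. They held ranks 1 and 2 of the 23414 genes by log2 ratio with cadmium, and ranks 1 and 40 with copper. A log2 ratio of at least 1 on each of the 3 arrays was found for 5 of the 7 loci with cadmium, where 3.86% of all genes reached it, and for 2 of the 7 with copper, where 5.03% of all genes reached it. The 5 include Os01g0136000, whose control was at background. It passed the filter through the cadmium-treated channel alone, so the cadmium count leans on that channel. The loci were chosen with such ratios in view, so ratios against the control are given as a description, with no test. The median of the 7 mean log2 ratios was 2.25 with cadmium and 0.60 with copper, against 0.01 and 0.02 over all genes. The cadmium median is the value of 1 probe of Os03g0266300 that differs from most probes of that locus, and it was 3.34 with the mean of each locus's probes and 3.39 with the scanner's processed signals.

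**Figure D1:**
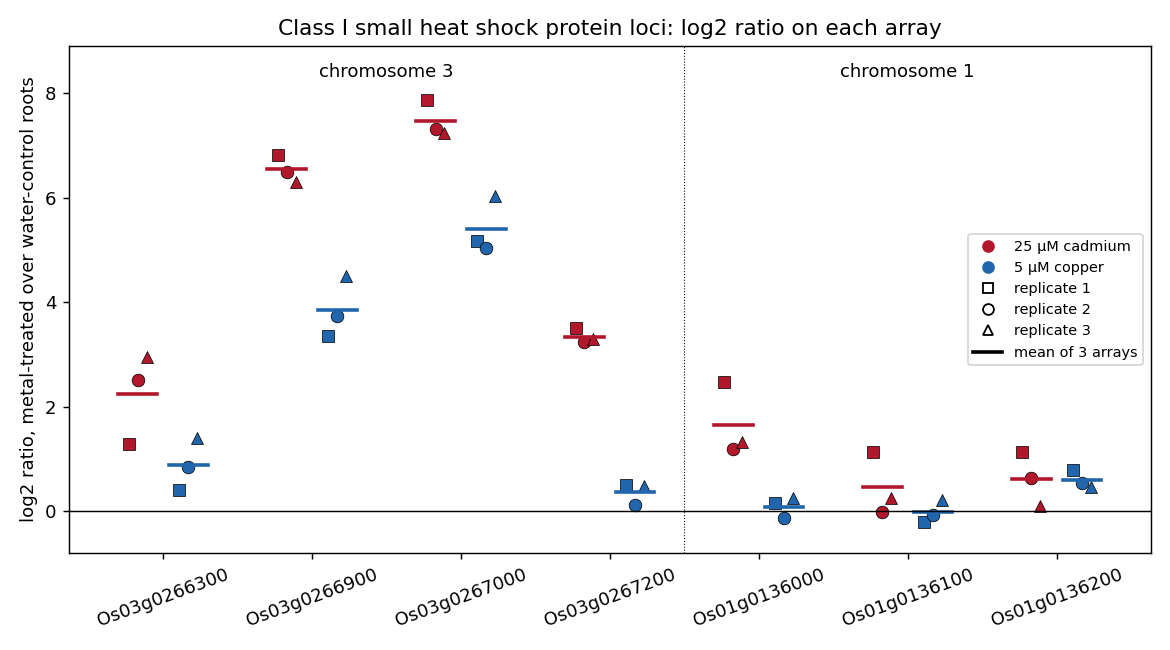
Log2 ratio of metal-treated over water-control roots (vertical axis) for the 7 loci (horizontal axis), with 1 point per array, cadmium in red and copper in blue, the marker shape giving the replicate number and the bar the mean of 3 arrays. The cadmium points of Os03g0266900, Os03g0267000, Os03g0267200 and Os01g0136000 all lie above the copper points of the same locus, while those of Os03g0266300, Os01g0136100 and Os01g0136200 overlap with them.

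The difference between the metals, cadmium minus copper on the log2 scale, was tested with limma in a model over all genes. It is a contrast of the same arrays, and earlier results already gave both ratios of Os03g0267000 and the cadmium ratio of Os03g0266900, so its p-values are not independent of the choice of loci. At an adjusted p under 0.05, 4 of the 7 loci were higher with cadmium than with copper, where 4.07% of all genes were, and 0 were lower, where 6.57% of all genes were. Without adjustment, 5 of the 7 were higher with cadmium at p under 0.05, where 11.7% of all genes were. The 3 cadmium ratios all lay above the 3 copper ratios at 4 of the 7 loci and at 15.2% of all genes. The median difference was 1.57 over the 7 loci and 0.01 over all genes. That 1.57 is the value of Os01g0136000, whose probe is dim and whose copper side is at background, so its size is not exact. The median was 2.07 with the mean of each locus's probes. Os01g0136000 and Os01g0136100 passed the filter on dim probes through the cadmium-treated channel alone, so the count over the 7 loci leans on the group in which they are bright. Of the other 5 loci, 3 were higher with cadmium.

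Os03g0267000, read by the probe of cDNA X75616, had the highest ratios with both metals. Its spot signal was 46962.5, 27571 and 26390 in cadmium-treated roots (replicates 1 to 3), against 382, 214 and 212 in the control roots on the same arrays. It was 3905.5, 2720 and 5447 in copper-treated roots, against 247, 112 and 128 in their controls. Every treated signal stood far above every control signal, and the controls were well above background on the 3 cadmium arrays and on 2 of the 3 copper arrays.

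After normalization the log2 ratios of Os03g0267000 were 7.87, 7.31 and 7.24 with cadmium and 5.16, 5.03 and 6.02 with copper. The mean was 7.47 ± 0.35 with cadmium and 5.41 ± 0.54 with copper (SD, n = 3 each), which is 178-fold and 42.4-fold over the control. The lowest cadmium ratio lay above the highest copper ratio, and the difference was 2.07 ± 0.28 (SE), with an adjusted p of 0.00412 (limma, Benjamini-Hochberg). On the shared slide it was 1.74, with an adjusted p of 0.00106 by limma. The call was lost with the scanner's processed signals, where the ratio was 7.95 with cadmium and 6.93 with copper and the difference 1.02, with an adjusted p of 0.225 by limma, and the authors' deposited table gave the same 1.02.

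Os03g0266900 came next in size and is covered by 4 probes, of which the brightest, of cDNA M80186, was used for the locus. Its spot signal was 13808.5, 17434.5 and 15455 in cadmium-treated roots, against 244.5, 234 and 230 in their controls. It was 1062, 1676 and 3048 in copper-treated roots, against 245, 147 and 178.5 in their controls. The controls of both metals were thus at similar brightness while the cadmium-treated signals stood well above the copper-treated ones.

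The log2 ratios of Os03g0266900 were 6.82, 6.50 and 6.30 with cadmium and 3.35, 3.74 and 4.50 with copper. The mean was 6.54 ± 0.26 with cadmium and 3.86 ± 0.59 with copper (SD, n = 3 each), or 93.0-fold and 14.5-fold over the control. The groups did not overlap, and the locus was 2.68 ± 0.28 (SE) higher with cadmium, with an adjusted p of 0.00137 (limma, Benjamini-Hochberg). On the shared slide the difference was 2.28, with an adjusted p of 6.94e-05 by limma.

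Os03g0267200, read by the probe of cDNA AK069547, differed from them in its response to copper: it was far above the control with cadmium and close to it with copper. Its spot signal was 20806, 10632 and 8493.5 in cadmium-treated roots, against 3110, 1132 and 881 in their controls. It was 2446, 1026 and 1204 in copper-treated roots, against 2497, 874 and 934 in their controls. The copper-treated and control signals were of similar size on each array, and replicate 1 was the brightest array in both channels of both metals.

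The log2 ratios of Os03g0267200 were 3.51, 3.23 and 3.29 with cadmium and 0.51, 0.12 and 0.49 with copper. The mean was 3.34 ± 0.14 with cadmium and 0.37 ± 0.22 with copper (SD, n = 3 each), or 10.1-fold and 1.29-fold over the control. The groups lay far apart relative to their spread, and the difference of 2.97 ± 0.14 (SE) had an adjusted p of 0.000127 (limma, Benjamini-Hochberg). On the shared slide the difference was 2.96, with an adjusted p of 1.90e-06 by limma. By size of difference Os03g0267200 held rank 15, Os03g0266900 rank 25 and Os03g0267000 rank 62 of the 23414 genes.

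**Figure D2:**
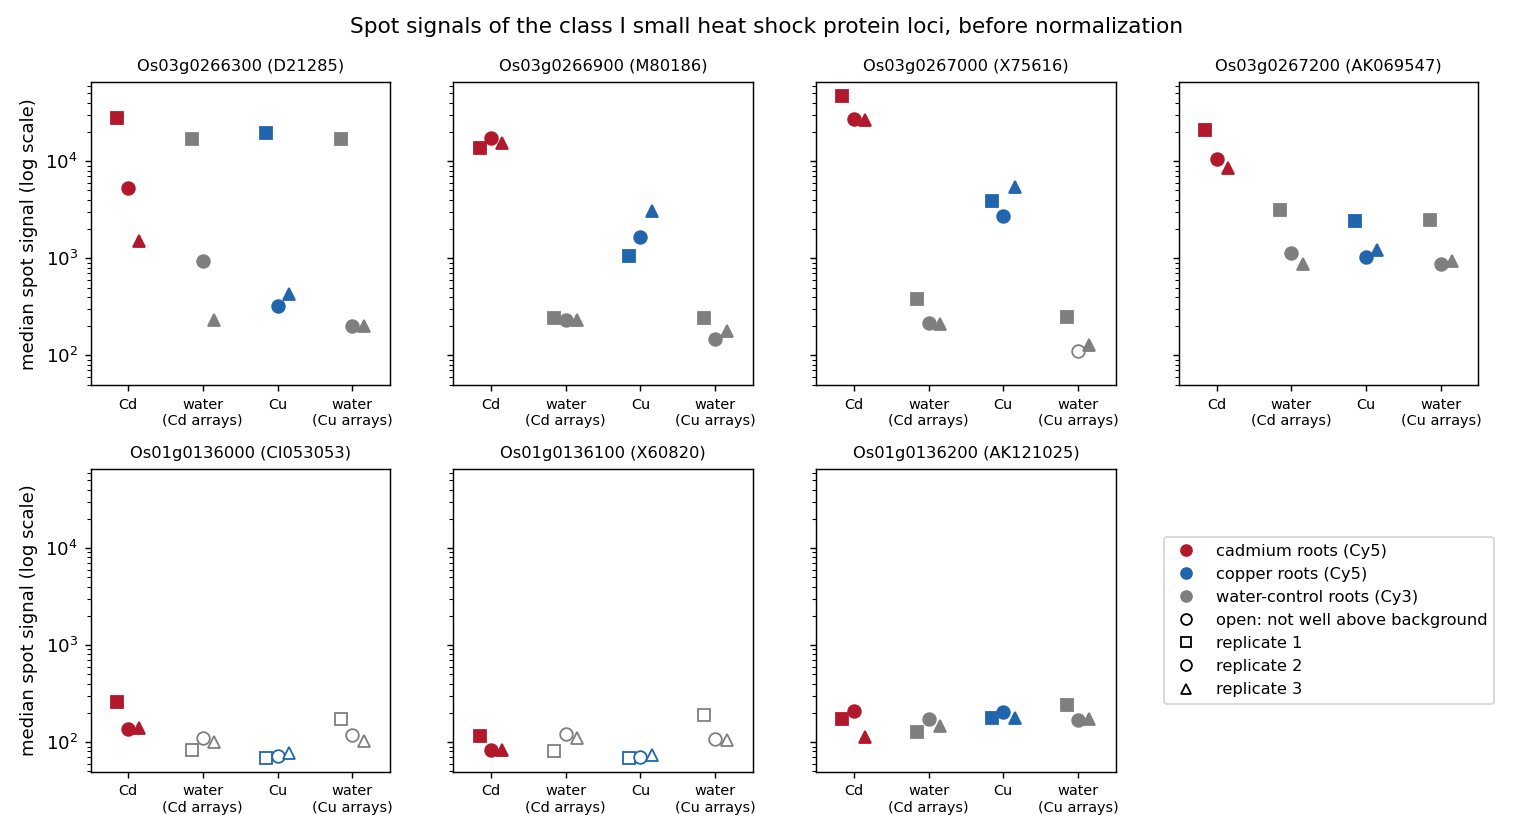
Median spot signal before normalization (vertical axis, log scale) of the probe used for each of the 7 loci, with 1 panel per locus and 1 point per array, for cadmium-treated roots, their water controls, copper-treated roots and their water controls. Open points were not well above background. The control signals of Os01g0136000 and Os01g0136100 are open on all 6 arrays, and the replicate 1 points of Os03g0266300 lie far above the others in every column.

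Os03g0266300 has 9 probes, and they gave different ratios. The brightest, of cDNA D21285 and described in its name as lying on 5′ UTR and coding sequence, was used for the locus. Its spot signal was 28134, 5297 and 1501 in cadmium-treated roots, against 16784, 947 and 229 in their controls. It was 19495, 324 and 427.5 in copper-treated roots, against 17145.5, 202.5 and 200.5 in their controls. Both replicate 1 arrays were thus far brighter than the others, in treated and control roots alike.

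The median control signal over all spots was 472, 305.5 and 274.5 on cadmium arrays 1 to 3 and 482.5, 254.75 and 275.5 on copper arrays 1 to 3, a much smaller gap than that of the D21285 probe. A control signal at least 10 times brighter on both replicate 1 arrays than on any other array was found for 542 of the 33685 kept probes (1.61%), and the D21285 probe was the 1 member probe among them. Its log2 ratios were 1.28, 2.51 and 2.96 with cadmium and 0.41, 0.85 and 1.41 with copper. The lowest ratio of each metal came from replicate 1, and the lowest cadmium ratio lay below the highest copper ratio.

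By the D21285 probe, Os03g0266300 averaged 2.25 ± 0.87 with cadmium and 0.89 ± 0.50 with copper (SD, n = 3 each). The difference of 1.36 ± 0.43 (SE) did not pass, with an adjusted p of 0.0864 (limma, Benjamini-Hochberg). It passed with the replicate number as a block (1.36, adjusted p = 0.00783 by limma), on the shared slide (1.61, adjusted p = 0.000361 by limma) and without cadmium replicate 1 (1.85, adjusted p = 0.00933 by limma). The mean of the 9 probes in place of the brightest gave 2.58, with an adjusted p of 0.000979 by limma.

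The other probes of Os03g0266300 are described in their names as lying on coding sequence and 3′ UTR. Of these, 7 were well above background in both channels of all 6 arrays, with mean log2 ratios between 3.79 and 4.43 for cadmium and between 0.97 and 1.35 for copper. Cadmium replicate 1 was the highest array for them, between 4.76 and 5.04, where it had been the lowest for D21285, and cadmium replicates 2 and 3 lay between 3.19 and 4.25. Their copper ratios lay between 0.82 and 1.80 over probes and arrays, with no overlap with the cadmium ratios.

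The differences of those 7 probes were between 2.82 and 3.08, and all 7 passed in a fit over all kept probes, with adjusted p at most 0.00384 (limma, Benjamini-Hochberg). The ninth probe, of cDNA AK104129, was dim: its control signal was not well above background on any array, and its treated signal was on the 3 cadmium arrays and on 1 of the 3 copper arrays. Its log2 ratio averaged 1.20 ± 0.11 with cadmium and 0.07 ± 0.12 with copper (SD, n = 3 each). It was kept through the cadmium-treated channel alone, so no fold or test is given for it.

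The 4 probes of Os03g0266900 lay close together, with mean log2 ratios between 6.34 and 6.54 for cadmium and between 3.35 and 3.86 for copper. Their differences were between 2.68 and 2.98, with adjusted p at most 0.00358 (limma, Benjamini-Hochberg), and all 4 passed. Over the 7 loci, 15 of 18 probes were higher with cadmium than with copper, where 4.1% of all 33685 kept probes were, and 0 were lower. Of the 18, 3 were kept through the cadmium-treated channel alone, those of CI053053, X60820 and AK104129, and 2 of these are among the 15, so this count too leans on the group in which they are bright. Probes of a locus carry the same locus number and are no replicates of a treatment. Whether the D21285 probe reads the same RNA as the other probes of Os03g0266300 was not tested. Near-identical tandem copies can also share a probe's target, and how far one locus contributes to the signal of another was not tested, since the probe sequences were not used here.

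**Figure D3:**
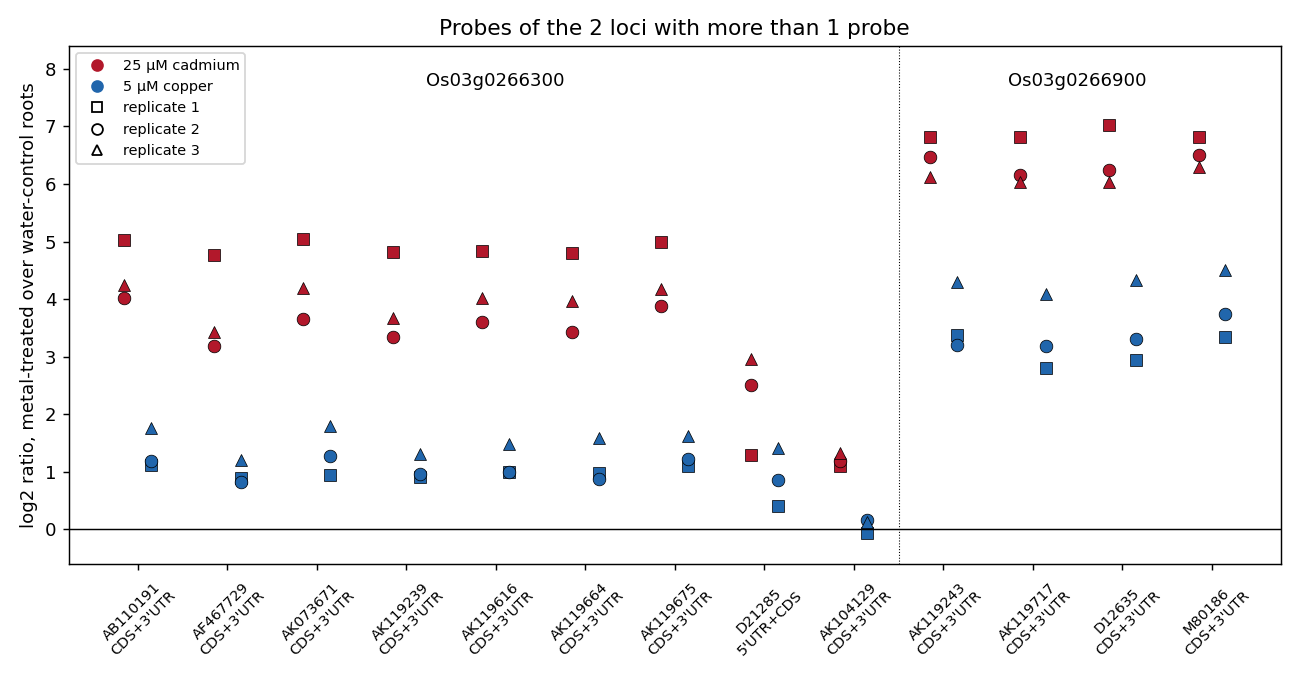
Log2 ratio of metal-treated over water-control roots (vertical axis) for each of the 9 probes of Os03g0266300 and the 4 of Os03g0266900 (horizontal axis, with the cDNA and the region given in the probe name), 1 point per array, cadmium in red and copper in blue. For 7 probes of Os03g0266300 the cadmium points lie between 3.19 and 5.04, while those of the D21285 probe lie between 1.28 and 2.96.

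The chromosome 1 loci had dim probes. Os01g0136000, read by the probe of cDNA CI053053, had a spot signal of 257, 136 and 140.5 in cadmium-treated roots, against 82, 109 and 101 in their controls. It was 68.5, 72 and 78 in copper-treated roots, against 171, 117.5 and 101.5 in their controls. The signal was well above background in the 3 cadmium-treated samples and in no copper-treated or control sample.

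The log2 ratios of Os01g0136000 after normalization were 2.48, 1.19 and 1.32 with cadmium and 0.16, -0.13 and 0.26 with copper. Over the mean of the 3 arrays, cadmium-treated roots were 3.01-fold above a control set no lower than the dimmest signal well above background. That value leans on replicate 1 and is no lower limit for each array. The mean log2 ratio with cadmium was 1.25 without cadmium replicate 1. No fold is given for copper, since both channels were at background. The groups did not overlap, and the fitted difference of 1.57 ± 0.32 (SE) had an adjusted p of 0.0209 (limma, Benjamini-Hochberg). Its copper side compares channels at background and the probe was kept through the cadmium-treated channel alone, so its size is not exact and its p is no independent evidence. On the shared slide, with the same limits, the difference was 1.19.

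The call for Os01g0136000 was lost without copper replicate 2 (1.46, adjusted p = 0.0829 by limma), without copper replicate 3 (1.65, adjusted p = 0.0581 by limma) and with no background subtraction (1.29, adjusted p = 0.0637 by limma). With the scanner's processed signals the ratio was 4.97 with cadmium and 0.56 with copper, and the difference 4.41. With a normexp offset of 10 the cadmium ratio was 2.90 and the difference 2.66, so the size for this dim probe depends on the processing.

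Os01g0136100, read by the probe of cDNA X60820, had a spot signal of 115, 83 and 83.5 in cadmium-treated roots, against 80, 122 and 109.5 in their controls. It was 69, 69.5 and 74 in copper-treated roots, against values between 105 and 192 in their controls. Here too the signal was well above background in the 3 cadmium-treated samples and in no other. The log2 ratios were 1.14, -0.01 and 0.26 with cadmium and -0.20, -0.06 and 0.21 with copper, with cadmium replicate 1 well above the copper arrays, cadmium replicate 3 just above them and cadmium replicate 2 among them.

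The mean cadmium ratio of Os01g0136100 was 0.46 on the log2 scale, against a control at background, and it was 0.12 without cadmium replicate 1 and 3.01 with the scanner's processed signals, so no fold is given for either metal. The difference between the metals was 0.48 ± 0.28 (SE), with an adjusted p of 0.340 (limma, Benjamini-Hochberg). Without cadmium replicate 1 it was 0.14, on the shared slide it was 0.05, and with the scanner's processed signals it was 3.12, with adjusted p of 0.632, 0.832 and 0.0590 by limma.

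Os01g0136200, read by the probe of cDNA AK121025, was measured well above background in both channels of all 6 arrays. Its spot signal was 173, 208 and 114 in cadmium-treated roots, against 128, 172 and 145 in their controls. It was 175, 206 and 176 in copper-treated roots, against 239.5, 168 and 173.5 in their controls. Treated and control signals were of similar size with both metals.

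The log2 ratios of Os01g0136200 were 1.15, 0.63 and 0.10 with cadmium and 0.79, 0.54 and 0.46 with copper. The mean was 0.63 ± 0.52 with cadmium and 0.60 ± 0.17 with copper (SD, n = 3 each), and the cadmium arrays bracketed the copper ones. The difference of 0.03 ± 0.25 (SE) had an adjusted p of 0.957 (limma, Benjamini-Hochberg), and on the shared slide it was -0.13, with an adjusted p of 0.585 by limma.

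Os01g0136000 and Os01g0136100, with controls at background, cannot be ranked by ratio. In order of their mean log2 ratio with cadmium the other 5 loci ran Os03g0267000, Os03g0266900, Os03g0267200, Os03g0266300 and Os01g0136200, and the arrays did not overlap from one locus to the next. With copper the order was Os03g0267000, Os03g0266900, Os03g0266300, Os01g0136200 and Os03g0267200. The first 3 of these did not overlap, and from Os03g0266300 on each locus overlapped with the next. Os03g0266300 takes these places by the D21285 probe, and 7 of its other probes had cadmium means above that of Os03g0267200. The orders compare ratios within arrays, not transcript levels between loci.

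The loci whose numbers lie around these clusters were taken by number, not by value, and 33 of 41 passed the filter. The windows of numbers were set with earlier results of these data known. On chromosome 3 the 23 neighbours had mean log2 ratios between -0.65 and 0.54 with cadmium, none near those of Os03g0266900 or Os03g0267000. With cadmium 2 of them were higher than the control and 6 lower, where 21% and 12.9% of all genes were (limma, adjusted p under 0.05). With copper they lay between -0.46 and 0.64, and 3 were higher and 7 lower, where 25.4% and 17.5% of all genes were.

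Os03g0266700 and Os03g0266800 lie by number between Os03g0266300 and Os03g0266900. Os03g0266700 had a mean log2 ratio of -0.08 with cadmium and -0.44 with copper. Os03g0266800 was lower than the control with both metals, at -0.38 with cadmium (adjusted p = 0.0194 by limma) and -0.46 with copper (adjusted p = 0.00655 by limma). Neither thus came near the ratios of the small heat shock protein loci on either side of them.

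On chromosome 1, 7 of the 10 neighbours were higher than the control and 1 lower with each metal (limma, adjusted p under 0.05). Over all genes, 21% were higher and 12.9% lower with cadmium, and 25.4% were higher and 17.5% lower with copper. The highest of these neighbours was Os01g0135700, at 2.01 with cadmium (adjusted p = 3.03e-06 by limma) and 2.92 with copper (adjusted p = 1.24e-06 by limma). It was 0.91 lower on the log2 scale with cadmium than with copper (adjusted p = 0.00271 by limma). The fitted difference of Os01g0136000 had the other sign, but its copper side is at background. Os01g0135900, next by number to Os01g0136000, was at 1.39 with cadmium (adjusted p = 0.0103 by limma) and 1.69 with copper (adjusted p = 0.00327 by limma). Its difference between the metals was -0.30 (adjusted p = 0.722 by limma). On the other side of the members, Os01g0136300 was at -0.29 with cadmium (adjusted p = 0.0307 by limma) and -0.36 with copper (adjusted p = 0.0102 by limma). The reference assembly lists 5 small heat shock protein genes clustered on chromosome 1, more than the members there. Neighbours may thus belong to the same family, Os01g0135900 among them. This was not tested, because the array's loci carry no gene names. Between the metals, 0 of the 10 were higher and 4 lower with cadmium on chromosome 1, and 1 of the 23 was higher and 1 lower on chromosome 3. Over all genes, 4.07% were higher and 6.57% lower with cadmium than with copper.

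**Figure D4:**
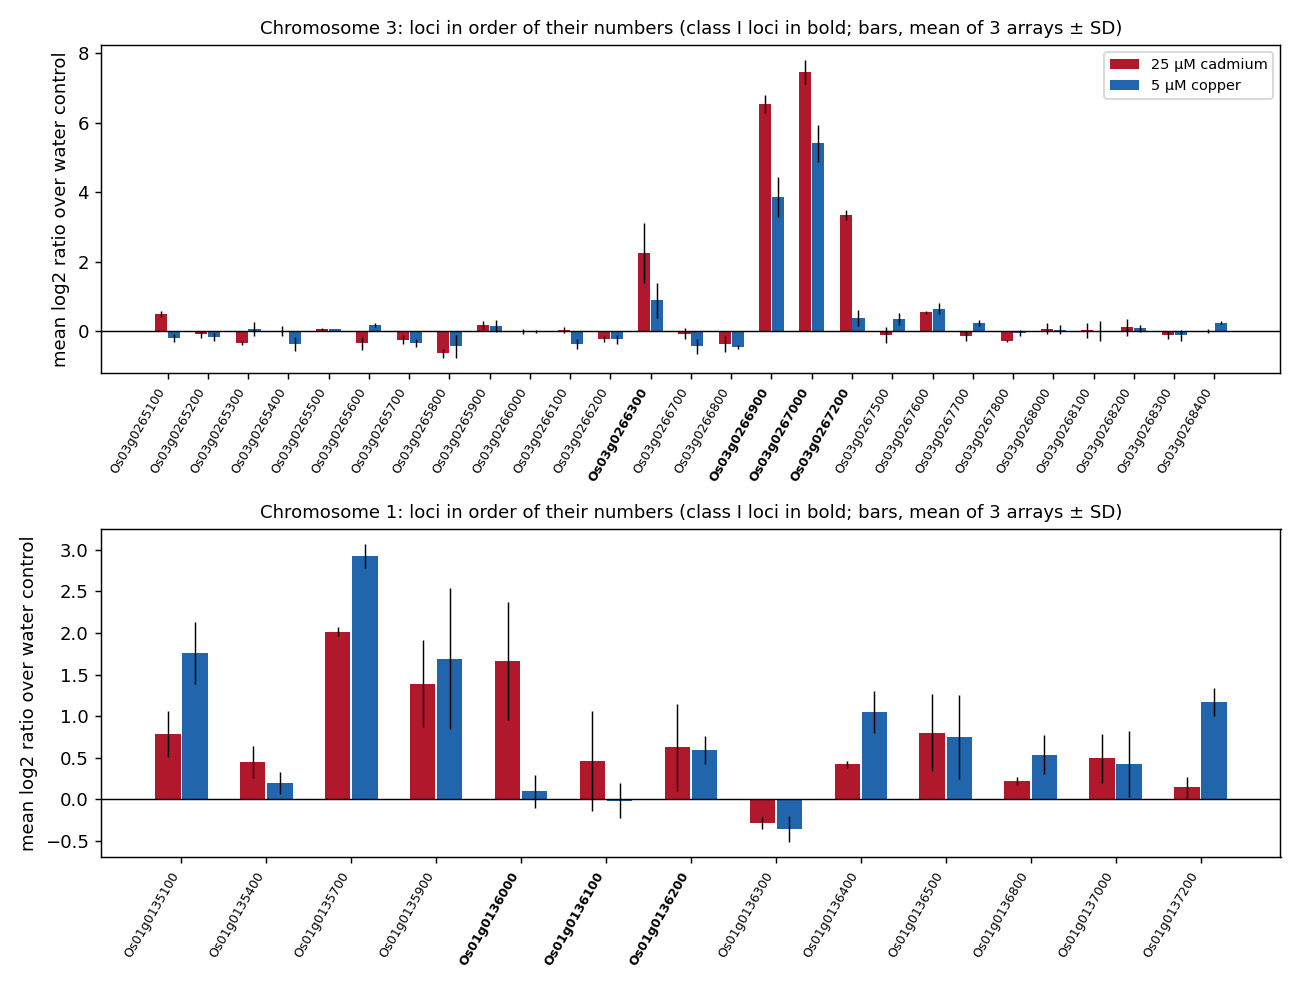
Mean log2 ratio of metal-treated over water-control roots (vertical axis, bars from 0, with the SD over arrays), cadmium in red and copper in blue. Loci are in order of their numbers (horizontal axis), on chromosome 3 (upper panel) and chromosome 1 (lower panel, with its own scale). The class I loci studied here are in bold, and neighbours on chromosome 1 may include other small heat shock protein genes. On chromosome 3 the cadmium bars of the bold loci stand above those of all neighbours, whose bars lie between -0.65 and 0.64, and on chromosome 1 Os01g0135700 has the highest bars, while the controls of Os01g0136000 and Os01g0136100 were at background.

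The 8 loci whose 6 log2 ratios lay nearest to the median of the 7 loci on each array, by Euclidean distance over the 6 arrays, were Os05g0506000, Os02g0543200, Os05g0395400, Os02g0622500, Os01g0839100, Os09g0344400, Os03g0838800 and Os09g0376300. Their distances ran between 0.30 for Os05g0506000 and 0.72 for Os09g0376300. They had mean log2 ratios between 2.38 and 2.72 with cadmium and between 0.37 and 0.74 with copper. For Os02g0543200 and Os09g0344400 the control was not well above background on any array. The 7 loci themselves lay farther from their own median, between 1.37 for Os03g0267200 and 12.0 for Os03g0267000, so their median stands for none of them closely.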

How the data were processed

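The 7 loci, the neighbour windows and the tests were chosen with earlier results of these data known. Spot intensity was deposited as Feature Extraction 10.7.1.1 wrote it, per the file headers: median brightness of spot and local background, not normalized. Per the file headers, the same program also subtracted background, removed spatial trends and balanced the dyes to give the deposited processed intensity and the log10 ratio made from it. The authors' deposited table holds log2 ratios of 42475 probes. Against the scanner's log2 ratio its columns had slopes of 1.000 to 1.001 and r of 0.988 to 1.000, so the direction is treated over control, while its centring is not stated. Its column medians were -0.050, -0.145 and -0.080 for cadmium 1 to 3 and -0.067, -0.161 and -0.191 for copper 1 to 3.

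Background was corrected by normexp (offset 50) on median signals, since the planned mean signals are not among the columns used here. Arrays were normalized by loess, which assumes that most genes do not change, leaving out control spots and spots marked as outliers (at most 2.85% of an array). The offset pulls ratios of dim probes towards 0. A probe was kept where 1 channel, treated or control, stood well above background on the 3 arrays of cadmium or of copper and where each metal had 2 or more values, and the brightest kept probe stood for a locus. Each member probe has 1 spot, and none was marked.

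The log2 ratios of the 6 arrays entered 1 model in limma 3.58.1 (lmFit, eBayes; R 4.3.3), with a coefficient per metal, two-sided tests and Benjamini-Hochberg adjustment over 23414 genes at a threshold of 0.05. The script was tested on simulated data. The titles of the samples gave the groups and the replicate numbers. Deviations of same-numbered cadmium and copper arrays from their group means correlated at 0.37, 0.24 and 0.27 across genes. Replicates 2 and 3 share a slide and correlated across numbers at 0.19 and 0.23, so these values barely separate them. The reported model holds no pairing, and the replicate number entered as a block only in an alternative fit. The named loci are the 7 members, the loci around them by number and the 8 nearest in ratio. Lists of other heat shock genes and of tissue markers, given by locus number, were not reported, because neither the files nor the reference table (0 matching loci, 0 matching accessions) names the loci. No probe or promoter sequence was used here.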

Additional observations from a re-analysis of the deposited data

Results flagged for a closer look

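The response differed between the metals, by the contrast of cadmium minus copper in limma, at 4 of the 7 loci, where 4.07% of all genes were higher with cadmium. The log2 difference was 2.97 for Os03g0267200, 2.68 for Os03g0266900, 2.07 for Os03g0267000 and 1.57 for Os01g0136000, and the 3 cadmium ratios of each lay above its 3 copper ratios. Os03g0267200 had control signals well above background on all 6 arrays and a copper ratio close to 0 on the log2 scale, at 0.37 ± 0.22 (SD, n = 3). The difference of Os03g0267000 did not pass with the scanner's processed signals (1.02). Both ratios of Os03g0267000 and the cadmium ratio of Os03g0266900 were known when the loci were chosen. Os01g0136000 was kept through the cadmium-treated channel alone and its copper side is at background, so its difference is not exact, and it did not pass without copper replicate 2 (1.46) or without copper replicate 3 (1.65).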

How the results depend on the processing

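No locus reversed a passing call under the alternatives run. Os03g0266900 and Os03g0267200 passed in all 20, with differences between 2.28 and 3.00 and between 2.84 and 3.13. Os03g0267000 passed in 16 of 19, and failed with the scanner's processed signals (1.02), those centred (0.97) and the authors' table (1.02). Os01g0136000 passed in 16 of 19, but its probe was kept through the cadmium-treated channel alone, so that tally is no independent evidence. Os03g0266300 passed in 6 of 20. These held the mean of its probes (2.58) and their median (2.95, added after seeing the data). They also held the slide as a random block (limma adjusted p = 0.00268) and the replicate block (1.36). The replicate block changed no other call. The count of loci higher with cadmium, 4 as reported, was 2 of the 4 loci left when both channels had to be well above background on all arrays, and 3 to 5 when 1 array was left out; the count lower was 0 throughout.

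The median over the loci moved with the setting. With cadmium (2.25 as reported) it was 3.39 with processed signals and with the authors' table, 3.47 with processed signals centred, 2.90 with offset 10, 2.80 with the strict filter, 3.34 with the mean or the median of probes, 2.73 on the shared slide and 1.90 to 2.73 without 1 array. With copper (0.60) it was 0.83 with processed signals and the authors' table, 0.97 centred, 0.46 with no background subtraction, 0.80 with offset 10, 0.74 with the strict filter, 0.53 with the slide block, 0.50 on the shared slide and 0.50 to 0.63 without 1 array. The difference (1.57) was 2.40 with processed signals and the authors' table, 2.35 centred, 2.02 with the strict filter, 2.07 with the mean or the median of probes and 1.46 to 1.85 without 1 array. The causes were not tested.

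Over all genes, calls higher and lower with cadmium numbered 954 and 1538 as reported, 1587 and 2226 with the replicate block, 2615 and 3261 with the slide block (correlation 0.664), 2660 and 3427 on the shared slide and 532 and 1183 with median centring. They numbered 421 and 832 without copper replicate 2, 489 and 756 without copper replicate 3, 458 and 855 without cadmium replicate 2 and 484 and 889 without cadmium replicate 3. With processed signals the median log2 ratio of all genes was -0.11 with cadmium and -0.13 with copper, against 0.01 and 0.02 as reported. Where a control is not well above background, as at Os01g0136000 and Os01g0136100, signal over background limits the fold.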
